A study of Homo sapiens with 34 samples.

Results

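Interferon-stimulated genes are the antiviral genes that cells turn on when interferon binds its receptor. A set of 47 of them, chosen by name, was followed through the differentiation of H1 towards blood, and all 47 were found among the 20255 genes of the expression table. H1 is an established line of human embryonic stem cells. It was sampled undifferentiated (1 sample), as EBs (day 0), unsorted at days 2 and 4, and as sorted CD43+ and CD43- fractions of days 6, 9, 12 and 16, with 3 independent biological replicates of each population from day 0 on. CD43 (leukosialin) marks blood cells, and on day 16 the cells were sorted on CD45 as well, so that the day 16 samples were the CD43-CD45- and CD43+/CD45+ fractions. The differentiation was started with BMP4 and VEGF, and by the labels VEGF alone was kept in the medium from day 3. No haematopoietic cytokine and no interferon was named among the additions, and every population came from the same line, so another line cannot be read from these samples.

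Type I and type III interferons act through receptors that use the kinases JAK1 and TYK2, and these phosphorylate transcription factors of the STAT family. STAT2 and IRF9 belong to the complex ISGF3, which binds a short DNA element, the interferon-stimulated response element, in front of its target genes. The products of these genes recognise, degrade or trap viral RNA and proteins, and pluripotent stem cells are known for a weak response to interferon, which is gained as cells differentiate.

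The DNA in front of the genes was looked at first, because the element that ISGF3 reads is what many of these genes are known to share. RefSeq promoter windows (GRCh38.p14, 250 bases before to 50 bases after a start) were matched for 37 of the 47 genes. The core of the element, taken as GAAA, any 2 bases and GAAA on either strand, was found in at least 1 window of 28 of the 37 genes (75.7%), and 3.57% of all 35116 windows held it. The gamma-activated site, TTCNNNGAA, searched on both strands, was found in 11 of the 37 genes (29.7%) against 7.66% of all windows. The 37 genes had 49 windows, and a gene counted if any of its windows held a match. A share of genes and a share of windows are therefore unlike measures. Both motifs lay in 1 window for 8 genes and overlapped there for 5. A match describes letters in these windows and is no measurement of binding. The sites below are shown for genes that the expression results turn on: IFI44L with the steepest rise, and ISG15 and IFIT1 as classical targets. RSAD2, GBP1 and RTP4 set the fractions apart, IFITM1 and BST2 were already expressed early, and DTX3L shares its site with PARP9. Capitals mark bases that belong to a core match, and each stretch is written 5′ to 3′ on the strand that reads GAAA.
IFI44L (chr1:78620365-78620394, + strand): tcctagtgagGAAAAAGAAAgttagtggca
ISG15 (chr1:1013380-1013409, + strand): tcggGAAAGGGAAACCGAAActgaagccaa
IFIT1 (chr10:89392510-89392539, - strand): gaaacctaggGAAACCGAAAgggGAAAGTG
RSAD2 (chr2:6877622-6877651, - strand): ttccacatgtGAAACTGAAAgttgaaacag
GBP1 (chr1:89065316-89065345, + strand): agagtaatatGAAACTGAAAgtacttcgtt
RTP4 (chr3:187368357-187368386, + strand): accgaacaccGAAACTGAAActgtttgtct
IFITM1 (chr11:314024-314053, + strand): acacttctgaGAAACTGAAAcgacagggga
BST2 (chr19:17405735-17405764, - strand): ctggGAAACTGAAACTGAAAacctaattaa
DTX3L and PARP9 (chr3:122564322-122564351, + strand): ccagggaagcGAAACTGAAActttgcgccc

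The match of IFITM1 began 6 bases before its start, that of RTP4 18, that of IFI44L 73 and that of GBP1 127. DTX3L and PARP9 are transcribed away from each other, and the same match stood 6 bases before the start of DTX3L and 41 before that of PARP9. No core match was found in the windows of CMPK2, DDX58, HERC6, IFI35, OAS1, SAMD9L, SP110, STAT2 and XAF1. The genes also share their position. Of the 47 genes, 27 lay within 100 kb of another of them, on 9 chromosomes, and they include the IFIT genes on chromosome 10 (IFIT1, 89392546 to 89406486), the IFITM genes on chromosome 11, the OAS genes on chromosome 12 and the guanylate-binding protein genes on chromosome 1. Such neighbours are often close copies, and the reads of IFITM1, IFITM2 and IFITM3, of the IFIT genes and of the GBP genes may have been split between copies. The annotated spans of IFITM1 (313506 to 315272) and IFITM2 (307631 to 315272) overlap, as do those of PARP9 and DTX3L and of CMPK2 and RSAD2. Use of strand in the counting is not given in the sources used here, so reads in the shared stretches cannot be assigned.

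Values are tag counts normalized for GC content and between samples. Every sample holds the same set of values in another order, with a sum of 17856940 and a median of 197, so a value is close to a rank, depth is unknown, and no counting interval can be given. Values are not divided by transcript length and are compared between samples, never between genes. The targets of the sort behaved as labelled: SPN, the gene of CD43, averaged 159 in CD43- and 6127 in CD43+ cells on day 12, and PTPRC, the gene of CD45, averaged 27.3 in CD43- and 12655 in CD43+ cells on day 16. In bulk samples, fewer cells of a type and less RNA per cell cannot be told apart. A gene is called here where limma's adjusted p over 19788 genes was below 0.05 and the fold change above 4, and "rose" and "fell" are kept for called genes. Fold changes are on the log2(value + 1) scale and compare the means of 3 against 3 samples. A difference between fractions in the change between days uses both fractions of both days. The standard error after ± comes from 1 estimate of the spread per gene over all 33 fitted samples. It is not the spread of the samples compared alone.

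The median level of the 47 genes was low and nearly flat through day 6 and then climbed in both fractions, highest in CD43+ cells of day 16. The median over the 47 genes of log2(value + 1) was 5.13 in the undifferentiated sample, and its mean over replicates was 5.52, 5.19 and 5.14 at days 0, 2 and 4. At days 6, 9, 12 and 16 it was 4.70, 7.01, 8.72 and 10.80 in CD43+ cells and 5.49, 5.87, 6.80 and 8.94 in CD43- cells. The median of all genes in the table is 7.63 in every sample by construction. It serves as a fixed line between samples and does not measure the set against other genes. The set lay below it in every sample through day 6 and above it in all 6 samples of day 16. The samples of day 12 were split, the 3 CD43+ samples (8.26 to 8.95) lying above it and the 3 CD43- samples (6.32 to 7.04) below.

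By population mean, 39 of the 47 genes were highest in CD43+ cells of day 16 and 6 in CD43- cells of day 16, which were IFI44L, IFIT1, IFIT5, IFITM1, IFITM3 and BST2. The other two were GBP4, highest in CD43+ cells of day 6, and GBP1, highest in CD43- cells of day 12. The mean went up at each step from day 6 to day 16 for 34 genes in CD43+ cells, for 28 in CD43- cells and for 25 in both. On day 0, 16 genes had a mean of at least 100 and 17 a mean under 10. None of the 47 stood at the table's highest value in any sample.

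**Figure D1:**
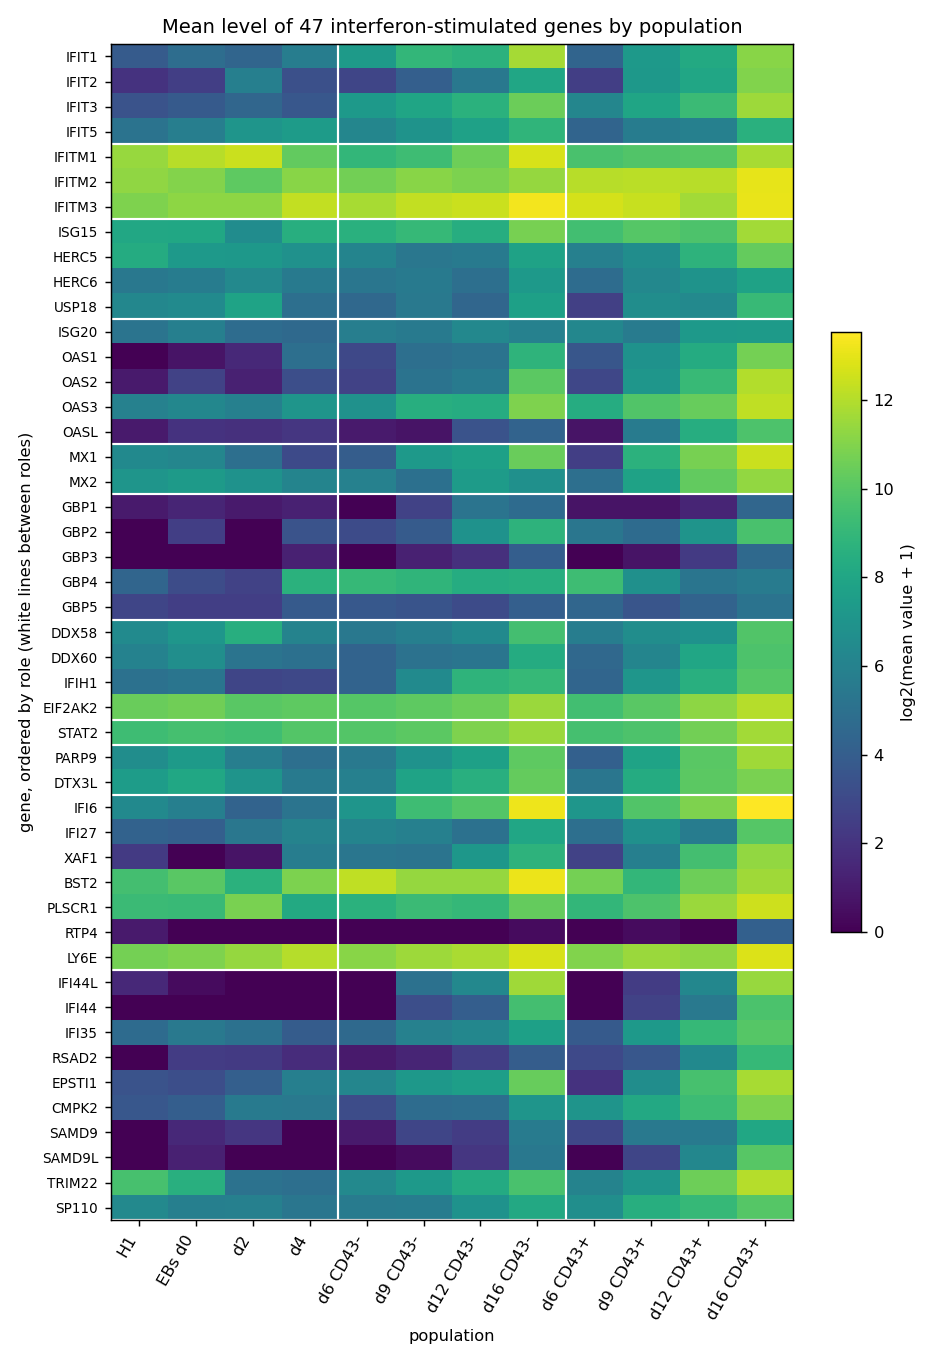
Mean value, as log2(mean + 1), of the 47 genes (rows, by role) in the 12 populations (columns). Rows are read along their length only, since values are not scaled by transcript length. Most rows are brightest in the day 16 columns, while the IFITM genes, EIF2AK2, BST2 and LY6E are bright from day 0.

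Before the sort on CD43 the set moved in no common direction. From day 0 to day 2, 1 of the 47 genes rose (4.4% of all genes rose) and 3 fell (3.48% of all genes fell). IFIT2 was the one that rose, from 4, 6 and 4 to 48, 64 and 55, and TRIM22, GBP2 and IFIH1 fell. From day 2 to day 4, 6 rose (4.97% of all genes) and 6 fell (4.53%), the risers being GBP4, XAF1, OAS1, GBP2, OAS2 and BST2 and the others USP18, PLSCR1, IFIT2, DDX58, IFITM1 and SAMD9. GBP4 had the steepest change, from 6, 4 and 6 on day 2 to 362, 436 and 396 on day 4. The median change of the set was -0.14 on the log2 scale in the first step and 0 in the second, against -0.01 and -0.03 over all genes tested.

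Between day 4 and day 6 the set again moved in no common direction. The cells of day 4 were unsorted, so a change between the days cannot be told apart from the sort. In CD43+ cells 2 genes rose against day 4, SAMD9 and IFIT3 (6.8% of all genes), and 4 fell, EPSTI1, IFIT5, XAF1 and USP18 (7.73%). In CD43- cells IFIT3 rose (4.94% of all genes) and OAS1 and CMPK2 fell (2.77%). The medians were -0.27 and -0.05, against 0.03 and -0.08 over all genes.

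The change of direction came between day 6 and day 9. In CD43- cells the median change was 0.62 against -0.03 over all genes. A difference between the fractions in this step was not tested. In CD43+ cells 19 of the 47 genes rose (3.56% of all genes) and 1 fell, GBP4 (3.97%). The median change there was 1.54 against 0.01 over all genes. MX1, a dynamin-like GTPase that traps viral ribonucleoproteins, stood at 4, 6 and 4 before this step and at 427, 418 and 414 after it (6.23 ± 0.45 on the log2 scale). OASL, IFIT2, EPSTI1, USP18, OAS2 and PARP9 followed with changes between 3.71 and 4.92. IFI44L and IFI44 were listed at 0 in all 3 samples of day 6 and at 2 to 8 on day 9, which gives no fold. In CD43- cells IFI44L, IFI44 and GBP1 were likewise listed at 0 in all 3 samples of day 6. On day 9 they were at 71, 13 and 12, at 18, 7 and 1 and at 3, 5 and 8. The size of these changes depends on the value of 1 added before the logarithm. In CD43- cells 6 genes rose, IFI44L, MX1, IFI44, GBP1, IFI6 and IFIH1 (1.1% of all genes), and 0 fell (0.657%), with 3 lower at an unadjusted p under 0.05 by limma. This count moved with the samples: it was 11 without day 9 CD43- replicate 3, the replicate with the lowest value for 29 of the 47 genes, 4 without replicate 2, and 0 when only the 6 samples compared were fitted, where 19 genes were higher at an unadjusted p under 0.05.

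From day 9 to day 12, 12 genes rose in CD43+ cells (8.45% of all genes) and 0 fell (6.54%, with 3 members lower at an unadjusted p under 0.05 by limma). XAF1, an inhibitor of the apoptosis inhibitor XIAP, went from 66, 40 and 65 to 1138, 634 and 410. TRIM22, a ubiquitin ligase with antiviral activity, went from 158, 104 and 133 to 2028, 1511 and 948. The rest of the 12 were IFI44L, SAMD9L, EPSTI1, OASL, RSAD2, MX2, GBP2, PARP9, IFI44 and HERC5, and of these IFI44 was the one whose samples of the 2 days overlapped. In CD43- cells 6 genes rose, GBP2, OASL, GBP1, MX2, IFIH1 and XAF1 (4.52% of all genes), and 0 fell (2.8%, with 5 members lower at an unadjusted p under 0.05 by limma). The medians were 1.14 in CD43+ and 0.57 in CD43- cells, against -0.15 and -0.07 over all genes.

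The set was named with its rise to day 16 in both fractions already known, so the step from day 12 to day 16 is a description of that rise. In CD43+ cells 20 of the 47 genes rose (3.79% of all genes) and 0 fell (5.26%, with 0 members lower at an unadjusted p under 0.05 by limma). All 47 fold changes were above 0, from 0.07 to 5.95 with a median of 1.84 against 0.05 over all genes, and 43 genes were higher by the adjusted p at any fold, as were 21.3% of all genes. The 4 that were not were ISG20 (0.07, adjusted p 0.87), GBP4 (0.36, 0.18), GBP5 (0.79, 0.24) and IFI35 (0.91, 0.059). In CD43- cells 24 genes rose (4.46% of all genes) and 0 fell (5.97%, with 1 member lower at an unadjusted p under 0.05 by limma), with a median of 2.05 against 0.08. There, 40 genes were higher by the adjusted p at any fold, as were 24.8% of all genes. MX2 was lower by 0.64 ± 0.22 on the log2 scale (adjusted p 0.018), and ISG20, OASL, IFIH1, GBP1, GBP4 and RTP4 did not pass in either direction.

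The steepest genes were the same neighbours on chromosome 1 in both fractions, IFI44L (78619922 to 78646145) and IFI44 (78649796 to 78664078), whose products are interferon-induced proteins found in the cytoplasm. IFI44L stood at 181, 32 and 13 in CD43+ cells of day 12 and at 2882, 3262 and 2110 on day 16, and in CD43- cells at 110, 94 and 30 and then at 2329, 4080 and 2848. IFI44 stood at 104, 20 and 6 and then at 968, 1009 and 550 in CD43+ cells, and at 24, 12 and 10 and then at 470, 989 and 728 in CD43- cells. For both genes and both fractions every sample of day 16 was above every sample of day 12. The log2 fold changes were 5.95 ± 0.65 and 5.03 ± 0.68 in CD43+ cells and 5.45 ± 0.65 and 5.51 ± 0.68 in CD43- cells. No p is given, since this rise was known when the set was named. Next in CD43+ cells was SAMD9L, a growth-restricting factor mutated in inherited bone marrow failure, at 160, 50 and 14 and then at 1008, 1176 and 978 (4.40 ± 0.62). Next in CD43- cells was OAS2, an enzyme that makes 2′-5′-linked oligoadenylates, at 6, 96 and 38 and then at 878, 1490 and 1040 (5.22 ± 0.78).

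The replicates of a population were often ordered alike across the genes. On day 12 CD43+ replicate 3 was the lowest of its population for 39 of the 47 genes and replicate 1 the highest for 30, and CD43- replicate 1 was the lowest for 31. On day 16 CD43+ replicate 3 was the lowest for 35 and replicate 2 the highest for 30, and CD43- replicate 1 was the lowest for 32 and replicate 2 the highest for 40. The number of genes called between the 2 days lay between 19 and 26 in CD43+ cells and between 21 and 27 in CD43- cells when any 1 of the samples compared was left out.

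The genes called in each fraction overlapped in part. Of the 47, 15 rose in both fractions, 5 in CD43+ cells alone, 9 in CD43- cells alone and 18 in neither. Of the 19788 genes tested, 234 rose in both (1.18%), 516 in CD43+ cells alone, 649 in CD43- cells alone and 18389 in neither. The 15 were IFI44L, IFI44, IFI6, IFI27, IFIT1, IFIT2, OAS1, OAS2, USP18, DDX58, GBP2, GBP3, EPSTI1, SAMD9 and SAMD9L. GBP3 entered the fit through the samples of day 16 alone, so its place in these counts had to follow and is a description. Being called in 1 fraction does not show a difference between fractions, and the difference itself was tested. The change in CD43+ cells exceeded that in CD43- cells by more than 4-fold for RTP4 and GBP1 (2.86% of all genes), and for 0 genes was it smaller by as much (2.17%, with 4 members lower at an unadjusted p under 0.05 by limma). By the adjusted p at any fold, 7 were larger in CD43+ cells (7.92% of all genes), RTP4, GBP1, IFIT5 (1.73 ± 0.41), MX2 (1.73 ± 0.31), IFI27, IFITM3 and IFITM2, and 3 were larger in CD43- cells (9.08%), HERC6 (-1.51 ± 0.38), DDX60 (-1.20 ± 0.33) and DTX3L (-1.10 ± 0.34). The median difference of the set was -0.17 against -0.05 over all genes.

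**Figure D2:**
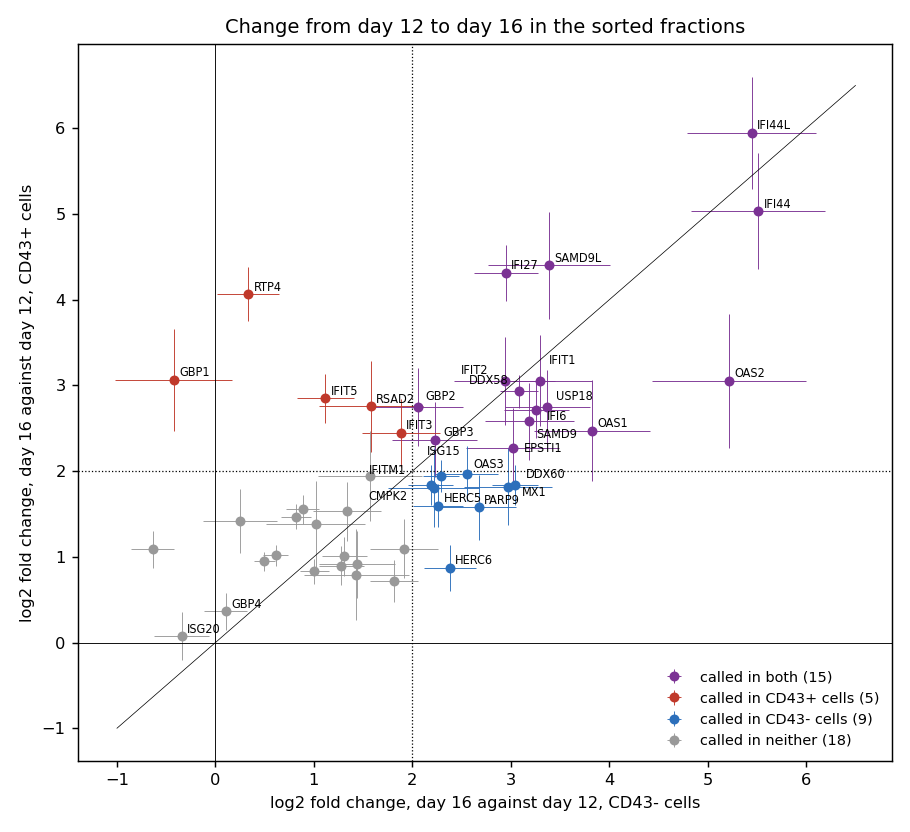
Log2 fold change from day 12 to day 16 of each of the 47 genes in CD43- cells (horizontal) and CD43+ cells (vertical), with standard errors as bars; colours give the fraction in which a gene was called, dotted lines the 4-fold threshold and the diagonal equal change. IFI44L and IFI44 lie at the upper right, and RTP4 and GBP1 are high on the vertical axis alone.

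The IFIT proteins, which bind viral RNA that lacks the host's cap, form the first group by role. From day 12 to day 16, 4 of the 4 IFIT genes rose in CD43+ cells (3.79% of all genes), by 2.45 to 3.06 on the log2 scale. In CD43- cells 2 of the 4 rose (4.46% of all genes), IFIT1 (3.29 ± 0.53) and IFIT2 (2.94 ± 0.51). IFIT1 was at 385, 374 and 127 and then at 2278, 2380 and 1968 in CD43+ cells, and at 160, 772 and 290 and then at 2680, 4295 and 2960 in CD43- cells. IFIT5 was lower in CD43+ cells on day 12. It was at 80, 69 and 24 in CD43+ and at 222, 248 and 180 in CD43- cells on day 12, and at 348, 463 and 326 against 451, 472 and 478 on day 16.

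The IFITM proteins sit in membranes and block the entry of viruses, and their genes were already expressed in pluripotent cells. IFITM1 was at 2807 in undifferentiated H1 cells and at 4783, 4476 and 3516 (day 0), 6006, 4844 and 6006 (day 2) and 1311, 1282 and 1158 (day 4). It then lay at 352, 436 and 707 in CD43- cells of day 6, at 936, 1714 and 1918 on day 12 and at 7158, 6584 and 6140 on day 16, and in CD43+ cells at 755, 723 and 907, at 880, 1252 and 858 and at 3572, 3940 and 3062. So the day 16 samples of CD43- cells returned to, and lay above, every sample of day 0. The change from day 12 passed the fold threshold in CD43- cells (2.18 ± 0.23) and not in CD43+ cells (1.84 ± 0.23).

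IFITM2 was at 3858, 4657 and 4508 in CD43+ cells of day 12 and at 8080, 7773 and 9240 on day 16 (0.95 ± 0.11), and in CD43- cells at 1810, 1945 and 1894 and then at 2758, 2520 and 2703 (0.50 ± 0.11). IFITM3 was at 3188, 3684 and 2652 and then at 8504, 8970 and 8678 in CD43+ cells (1.47 ± 0.15), and at 4899, 6248 and 5783 and then at 10080, 9722 and 9894 in CD43- cells (0.82 ± 0.15). Neither passed the fold threshold, and in both fractions all samples of day 16 lay above all samples of day 12. The fractions differed by gene on day 16: IFITM2 was higher in CD43+ cells (1.65 ± 0.11), IFITM1 was lower there (-0.92 ± 0.23), and IFITM3 was at -0.18 with an adjusted p of 0.28.

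ISG15 is a ubiquitin-like protein that is joined to other proteins by HERC5 and removed by USP18. It was at 272, 306 and 211 on day 0, at 946, 1094 and 582 in CD43+ cells of day 12 and at 3244, 3754 and 2792 on day 16 (1.94 ± 0.19), just under the fold threshold. In CD43- cells it was at 323, 324 and 404 and then at 1518, 2218 and 1480 (2.29 ± 0.19). HERC5, HERC6 and USP18 rose with it in CD43- cells, by 2.26, 2.38 and 3.37, and in CD43+ cells USP18 rose (2.75 ± 0.43). USP18, which also damps the type I receptor, had an early peak: it was at 226, 236 and 234 on day 2, at 10, 1 and 4 in CD43+ cells of day 6, and at 600, 651 and 400 on day 16.

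The OAS enzymes sense double-stranded RNA and activate RNase L, and OASL, a relative without that enzymatic activity, enhances RNA sensing. OAS1 and OAS2 rose from day 12 to day 16 in both fractions. OAS3 was at 2148, 1254 and 642 and then at 5040, 5314 and 3896 in CD43+ cells (1.97 ± 0.32), and it rose in CD43- cells (2.55 ± 0.32). OASL had the largest difference between fractions of the 47 genes on days 9, 12 and 16. It was at 60, 46 and 38 in CD43+ and at 0, 2 and 0 in CD43- cells on day 9, at 406, 386 and 233 against 3, 12 and 15 on day 12, and at 867, 850 and 876 against 14, 26 and 16 on day 16. ISG20, an exonuclease, was at 188, 169 and 135 in CD43+ and at 51, 64 and 68 in CD43- cells of day 16, and it was called in none of the steps between days within a fraction.

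The MX genes on chromosome 21 parted in CD43- cells. MX1 rose there from 66, 295 and 264 to 1118, 1796 and 1256 (2.97 ± 0.45), while MX2 went from 136, 188 and 192 to 112, 120 and 96. In CD43+ cells MX1 was at 2774, 1700 and 814 and then at 5641, 6250 and 4786, and MX2 at 1460, 1474 and 806 and then at 2588, 2653 and 2433, changes of 1.82 ± 0.45 and 1.09 ± 0.22. On day 16 MX2 was higher in CD43+ cells by 4.54 ± 0.22 (adjusted p 5.0e-16).

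Guanylate-binding proteins coat and break open pathogen vacuoles, and their 5 genes followed different courses. GBP2 rose from day 12 to day 16 in both fractions, from 66, 150 and 168 to 925, 644 and 869 in CD43+ cells and from 56, 200 and 93 to 414, 468 and 396 in CD43- cells. GBP4 went the other way in CD43+ cells, from 618, 649 and 644 (day 6) to 120, 76 and 133 (day 9), then 30, 36 and 44 (day 12) and 42, 60 and 41 (day 16). In CD43- cells it stayed between 280 and 645 in all 12 samples from day 6 on. GBP1 was at 2, 1 and 2 in CD43+ cells of day 12 and at 20, 24 and 19 on day 16, and at 28, 26 and 52 and then at 16, 34 and 28 in CD43- cells. GBP3 and GBP5 never exceeded 42 in any sample. GBP3 reached 10 in samples of day 16 alone, at 22, 24 and 24 in CD43+ and at 12, 14 and 20 in CD43- cells. It entered the fit through them, so its calls that use them had to follow and are a description.

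Among the RNA sensors, DDX58 (RIG-I) rose in both fractions, from 128, 130 and 102 to 974, 1030 and 765 in CD43+ cells (2.93 ± 0.19) and from 64, 88 and 101 to 660, 910 and 598 in CD43- cells (3.09 ± 0.19). Its cofactor DDX60 rose in CD43- cells (3.04 ± 0.23) and changed by 1.84 ± 0.23 in CD43+ cells. IFIH1 (MDA5) had its rise in CD43- cells earlier, from 99, 118 and 51 on day 9 to 410, 548 and 387 on day 12, and was at 490, 614 and 486 on day 16. EIF2AK2 (PKR), the kinase that stops translation on double-stranded RNA, was at 1506, 1690 and 1452 on day 0 and at 3980, 4777 and 3934 in CD43+ cells of day 16.

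STAT2, the one gene of the set that carries the signal, was at 797, 780 and 696 on day 0. It was at 1904, 1553 and 1415 in CD43+ cells of day 12 and at 3400, 3377 and 3013 on day 16 (1.02 ± 0.13), and in CD43- cells at 1812, 2387 and 1586 and then at 2774, 3116 and 2826 (0.61 ± 0.13). Both steps passed the adjusted p and not the fold threshold, and the fractions of day 16 were not told apart (0.17, adjusted p 0.25). PARP9 and its partner DTX3L, a ubiquitin ligase, rose together from day 6 to day 9 in CD43+ cells by 3.71 ± 0.38 and 3.01 ± 0.24, the pair with the shared site printed above. From day 12 to day 16 PARP9 rose in CD43- cells (2.67 ± 0.38) and DTX3L changed by 1.81 ± 0.24.

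Of the small and membrane proteins, IFI6, an inhibitor of flavivirus replication at the endoplasmic reticulum, rose in both fractions, from 2566, 2042 and 1095 to 12854, 12854 and 9902 in CD43+ cells and from 784, 1201 and 950 to 8088, 11204 and 8684 in CD43- cells. IFI27 rose in both fractions, by 4.31 ± 0.32 and 2.95 ± 0.32. BST2 (tetherin), which holds budding viruses on the cell surface, was higher in CD43- cells: it was at 3080, 3450 and 2931 in CD43+ and at 9485, 9230 and 8494 in CD43- cells of day 16 (-1.53 ± 0.34). RTP4, an inhibitor of RNA viruses, was listed at 0 or 1 in every sample but those of CD43+ cells of day 16, where it was at 10, 24 and 16. It entered the fit through these samples alone, so its calls in the counts that use them had to follow and are a description. XAF1, PLSCR1 and LY6E were not called in either fraction, with changes of 1.94, 1.01 and 1.55 in CD43+ cells and 1.57, 1.31 and 0.89 in CD43- cells.

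RSAD2 (viperin), which makes a chain-terminating nucleotide, and its neighbour CMPK2, a kinase that feeds it, were mostly CD43+ genes. RSAD2 was at 127, 90 and 42 in CD43+ cells of day 12 and at 541, 636 and 446 on day 16, and at no more than 19 in any CD43- sample. CMPK2 was at 132, 136 and 116 in CD43+ cells already on day 6, against 8, 14 and 2 in CD43- cells. It was at 1068, 495 and 326 against 16, 22 and 49 on day 12 and at 1870, 2209 and 1794 against 90, 186 and 114 on day 16. EPSTI1 and SAMD9 rose from day 12 to day 16 in both fractions, by 2.27 and 2.58 in CD43+ cells and 3.02 and 3.19 in CD43- cells, while TRIM22, SP110 and IFI35 changed by 0.90 to 1.53 and were called in neither.

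Over the longer span from day 9 to day 16, which uses the same day 16 samples, 35 of the 47 genes rose in CD43+ cells (7.82% of all genes) and 0 fell (6.22%, with 1 member lower at an unadjusted p under 0.05 by limma). In CD43- cells 32 rose (4.88%) and 0 fell (4.31%, with 0 members lower at an unadjusted p under 0.05 by limma). The medians were 3.20 and 2.49, against -0.12 and -0.01 over all genes. IFI44L had the largest change in both, 9.10 ± 0.65 and 6.99 ± 0.65.

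The comparison of CD43+ with CD43- cells of the same day asks when the fractions part. On day 6, 2 of the 47 genes were higher in CD43+ cells (4.68% of all genes) and 4 lower (7.85%), with a median difference of 0. CMPK2 and GBP2 were the higher pair, and EPSTI1, IFIT1, XAF1 and USP18 were lower. On day 9, 10 were higher (8.65%) and 4 lower (12.8%), with a median of 0.81 against 0.24 over all genes.

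On day 12, 20 were higher in CD43+ cells (11.8% of all genes) and 3 lower (14.4%), with a median of 1.60 against 0.22. OASL (5.14 ± 0.51), CMPK2 (4.37 ± 0.46) and OAS2 (4.0 ± 0.78) had the largest differences, and GBP1 (-3.72 ± 0.59), GBP4 (-3.15 ± 0.22) and IFIT5 (-2.05 ± 0.29) were lower. On day 16, 14 were higher (12.2%) and 1 lower (13.6%), with a median of 1.37 against 0.14. OASL (5.51 ± 0.51), RSAD2 (5.09 ± 0.53) and SAMD9L (4.66 ± 0.62) led, and GBP4 was the one lower (-2.89 ± 0.22). SAMD9L was at 1008, 1176 and 978 in CD43+ and at 30, 56 and 40 in CD43- cells, with no overlap. IFI44L, IFI44, IFI6, IFIT1, GBP1 and GBP3, which were called in 1 or both fractions between day 12 and day 16, differed between the fractions of day 16 by -0.56 to 0.60 with adjusted p of 0.22 to 0.86.

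**Figure D3:**
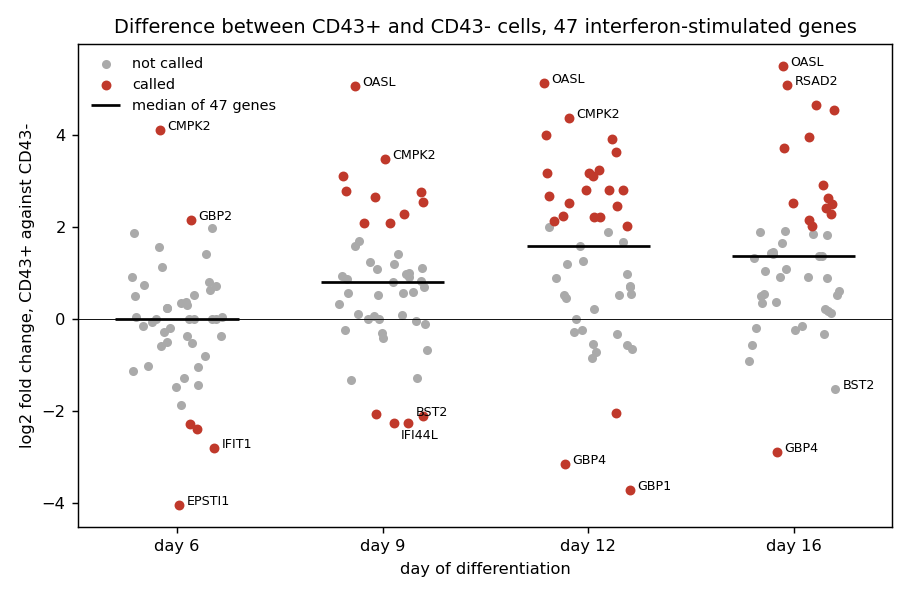
Log2 fold change of CD43+ against CD43- cells of the same day for each of the 47 genes (points; red, called) with the median of the set (bar). The bar is at 0, 0.81, 1.60 and 1.37 in turn, and OASL is the highest gene from day 9 on.

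The genes that make and carry the signal were looked at from a separate list. IFNB1, the gene of interferon beta, is the only 1 of the 22 listed interferon genes analysed here. It was at 2 or below in every sample of days 0 to 4, at 0 in both fractions of day 6, and at 18, 2 and 4, then 6, 12 and 3, then 52, 52 and 8 in CD43+ cells of days 9, 12 and 16. In CD43- cells it was at 0 on day 9, at 0, 0 and 1 on day 12 and at 6, 0 and 3 on day 16. IFNB1 entered the fit only with its CD43+ samples of day 16 counted. Its call from day 12 to day 16 in that fraction is therefore a description, and no p is given. The change was 2.04 ± 0.65 on the log2 scale, and the samples of the 2 days overlapped. All of these IFNB1 values are low, near the bottom of the table.

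The receptor chains changed before day 16. In CD43+ cells IFNAR2, the type I chain, went from 364, 355 and 350 on day 9 to 2226, 1584 and 1646 on day 12 and 1179, 1288 and 1486 on day 16. The interferon gamma receptor genes IFNGR1 and IFNGR2 rose in the same step by 2.41 ± 0.19 and 2.45 ± 0.15, and IL10RB, shared by the type III and IL-10 receptors, by 2.17 ± 0.15. IFNLR1, the specific type III chain, fell from 104, 124 and 76 to 36, 9 and 10. IFNAR1 was at 1653, 1059 and 1110 in CD43+ and at 882, 848 and 1055 in CD43- cells of day 12, and at 1452, 1468 and 2172 and 1138, 1150 and 1194 on day 16. Between days 12 and 16, 0 of the 6 receptor genes were called in either fraction by limma. Over all genes, 3.79% rose and 5.26% fell in CD43+ cells, and 4.46% rose and 5.97% fell in CD43- cells. At an unadjusted p under 0.05 by limma, 3 receptor genes were higher in CD43+ cells, and 1 was higher and 2 lower in CD43- cells.

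IRF9, which binds DNA within ISGF3, passed the adjusted p in both fractions between days 12 and 16 and the fold threshold in neither. It was at 1146, 1156 and 808 and then at 1258, 1358 and 1518 in CD43+ cells (0.43 ± 0.15), and at 480, 631 and 499 and then at 947, 1238 and 1032 in CD43- cells (1.0 ± 0.15). IRF7, which amplifies the production of interferon alpha, was at 1474, 1452 and 1090 and then at 3934, 4324 and 3890 in CD43+ cells (1.61 ± 0.17), and at 276, 410 and 560 and then at 860, 1095 and 956 in CD43- cells (1.27 ± 0.17). JAK1 and TYK2 changed by no more than 0.15 on the log2 scale in either fraction, with adjusted p of 0.44 to 0.87. The feedback inhibitor SOCS3 rose in CD43+ cells from 1236, 1050 and 1244 to 8073, 7026 and 8264, and in CD43- cells it was at 9714, 11996 and 7154 and then at 6812, 7026 and 6812.

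**Figure D4:**
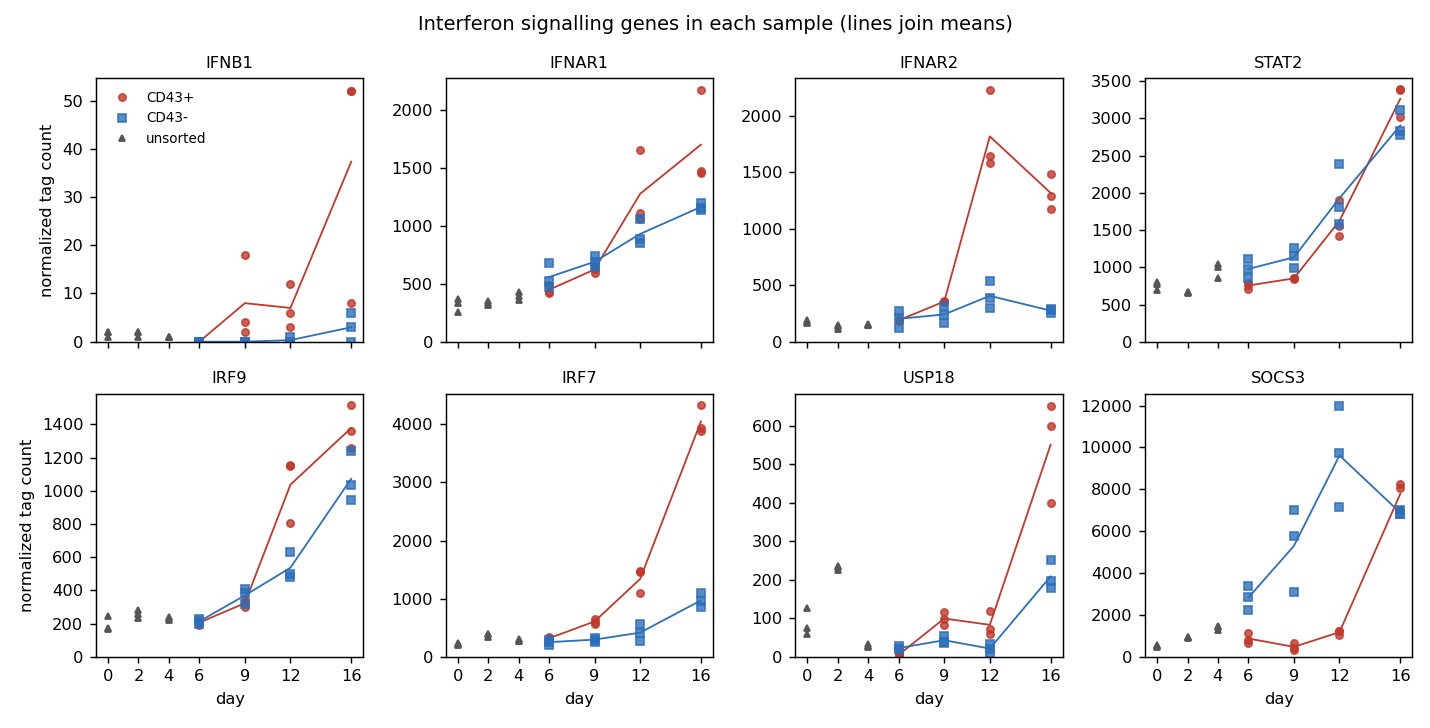
Normalized tag counts of 8 genes of the interferon pathway in each sample by day (red circles, CD43+; blue squares, CD43-; grey triangles, unsorted; lines join means, and each panel has its own axis from 0). The means of STAT2 and IRF9 are higher on day 16 than on day 12 in both fractions, while IFNAR2 in CD43+ cells is highest on day 12.

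Other interferon-induced genes were counted from a list of 60 written with earlier results known, of which 56 were in the table some of which stand in the list of sensors as well. Between day 12 and day 16, 5 of the 56 rose in CD43+ cells and 0 fell, with a median change of 0.98, and 9 rose and 1 fell in CD43- cells, with a median of 1.0. For these and the next 2 lists, the shares over all genes are 3.79% higher and 5.26% lower in CD43+ cells and 4.46% and 5.97% in CD43- cells. BATF2 went from a mean of 7.33 to one of 228 in CD43+ cells (4.91 ± 0.55), with SLFN5 (2.24 ± 0.43) and CCL8, which was listed at 0 in the 3 samples of day 12 and at 32, 14 and 46 on day 16. CCL8 entered the fit through these samples of day 16 alone, so its call had to follow and is a description. In CD43- cells DHX58, a relative of RIG-I, rose most (3.21 ± 0.68), with CXCL11 and BATF2, and APOL1 was the one that fell (-2.64 ± 0.40). Of a list of targets known chiefly for interferon gamma, which shares genes such as CXCL11 with the list above, 12 were in the table. In CD43+ cells 1 of the 12 rose, CD274 (PD-L1), and in CD43- cells 1 rose, CXCL11 (2.91), and 3 fell, of which IRF1 (-2.99 ± 0.33) and ICAM1 (-2.04 ± 0.33) had the largest changes, with medians of 0.02 and -0.30. CD274 was at 8, 3 and 2 and then at 20, 24 and 25 in CD43+ cells. CXCL11 was at 1, 0 and 0 and then at 12, 12 and 4 in CD43- cells. At such low values the size of a change depends on the value of 1 added before the logarithm. Of the 18 sensors and adaptors in the table, 3 rose in CD43+ cells, TLR9, TLR8 and DHX58, and in CD43- cells DHX58 and TLR8 rose and TLR7 fell. TLR9 was at 1, 22 and 10 and then at 122, 19 and 76 in CD43+ cells, so its samples overlapped. In CD43- cells TLR8 was at 0, 0 and 4 and then at 4, 7 and 8, and TLR7 at 4, 6 and 22 and then at 0, 2 and 2. These 2 CD43- changes lie near the bottom of the table, and their size depends on the value of 1 added before the logarithm.

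The make-up of the CD43- samples moved between the same days. The summed value of 7 megakaryocyte markers was 194 to 1152 in the CD43- samples of day 12 and 4989 to 15622 on day 16, that of 10 erythroid markers went from 9 to 375 to 4174 to 8004, and that of 12 neutrophil markers from 452 to 8201 to 7188 to 22446. In the megakaryocyte list 7 of the 7 genes rose, in the erythroid list 8 of 10 and in the neutrophil list 8 of 12. For these and the next marker lists, the shares over all genes in CD43- cells are 4.46% higher and 5.97% lower. ALAS2, AHSP and EPB42 were listed at 0 in every CD43- sample of day 12. Of 14 macrophage markers 7 fell, C1QA and CD14 most, and 1 rose, LYZ, and the sum lay between 635 and 10573 and then between 2843 and 8775. The 7 leukocyte markers summed to 1236 to 4828 and then to 2105 to 4032, with 0 of them called by limma and 2 higher at an unadjusted p under 0.05. The sums of mesenchymal markers (313859 to 317669, then 323974 to 329420), endothelial markers (33627 to 50473, then 57641 to 70840) and lymphoid and NK markers (1373 to 1587, then 1658 to 1779) did not overlap between the days in CD43- cells. In CD43+ cells macrophage (121794 to 204647, then 173202 to 187452), leukocyte (63723 to 78278, then 62570 to 88181) and neutrophil sums (212908 to 243707, then 172328 to 250035) overlapped between the days, as did megakaryocyte sums (11883 to 43788, then 27581 to 103628) and erythroid sums (9796 to 26661, then 17604 to 50551). The sums of mesenchymal markers (21369 to 46284, then 7753 to 16254), endothelial markers (5932 to 8199, then 8210 to 11777) and lymphoid and NK markers (3390 to 4448, then 5318 to 7216) did not overlap between the days in CD43+ cells. The part of these other cells in the rise of the 47 genes was not tested.

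The days also differed in genes outside the set. Genes named after a sequenced clone made up 12.4% of the genes tested, and among the genes that fell between days 12 and 16 they made up 50% in CD43+ and 45.4% in CD43- cells. There were 33 genes, of which 23 were clone-named, at 0 in all 6 samples of day 16 and at 10 or more in all 6 of day 12, and 2 the reverse, and 0 of the 47 were among them. RNA was sequenced at 2 companies, and which samples went to which is not given in the sources used here, so a difference between companies and the difference between these days cannot be told apart. On day 16 the sort used CD45 as well, which likewise cannot be told apart from the day.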

How the data were processed

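Total RNA of 34 samples was sequenced. Reads were aligned and quantified by the authors (bowtie2, RSEM, an Ensembl index), and EDASeq was used to correct for GC content and to normalize between samples. The submitters' processing notes also name bcl2fastq, STAR 2.7 and hg38. The deposited values are rounded to whole numbers and were treated as a normalized score, neither raw counts nor CPM. The deposited GC percent of each gene was not used. Depth is unknown. The 47 genes, the other lists and the tests were chosen with earlier results of these data known, so no list is independent support. All 47 could be named, and other genes came from the lists. Those given in every sample were the 3 largest called changes in each direction, the IFITM genes, STAT2, ISG15 and others added after their values were seen, as were IRF7, JAK1, TYK2, SPN and PTPRC.

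A linear model of log2(value + 1) was fitted to 33 samples of 11 populations, without a replicate block, using lmFit and trended eBayes of limma (3.58.1, R 4.3.3). It covered the 19788 genes that reached 10 in 3 or more samples. All 47 genes passed, RTP4 only through CD43+ cells of day 16 and GBP3 only through the day 16 samples of both fractions. In simulated data with log2 changes of 3 planted in 200 genes, the fit recovered 198 and called 2 unchanged genes. The planted genes were not low, and the noise was independent between genes. Low genes, changes near the fold threshold and replicates that move together across genes were therefore not covered. Deviations of equally numbered CD43+ and CD43- samples correlated at 0.11 to 0.20 on day 6 and at 0.04 to 0.11 on day 12. They correlated at 0.02 to 0.08 on day 9 and at -0.02 to 0.04 on day 16. Whether equal numbers mark pairs was not settled, and pairs were modelled on no day. Alternatives were other pseudocounts, filters, fold thresholds, scaling, a replicate block, fits of the compared populations, each sample left out and, added after seeing the data, protein-coding genes alone. Positions are GENCODE v29 on GRCh38. Some genes of the lists are not reported here.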

Additional observations from a re-analysis of the deposited data

Results flagged for a closer look

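The change from day 12 to day 16 differed between the fractions by more than 4-fold for 2 of the 47 genes, as fitted for the difference itself. RTP4 changed more in CD43+ cells by 3.73 ± 0.44 on the log2 scale. It passed the filter on low values only through the CD43+ samples of day 16, so this is a description and no p is given. It was at 0 in all 3 CD43+ samples of day 12, at 10, 24 and 16 on day 16, and at 0 or 1 in every CD43- sample, so the size of the difference depends on the value of 1 added before the logarithm.

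GBP1 changed more in CD43+ cells by 3.48 ± 0.84 (adjusted p 0.0050 by limma). It was at 2, 1 and 2 and then at 20, 24 and 19 in CD43+ cells, and at 28, 26 and 52 and then at 16, 34 and 28 in CD43- cells. The samples of the 2 fractions did not overlap on day 12 and overlapped on day 16. No group held the 4 or more samples that a check for single outlying samples needs.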

How the results depend on the processing

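Over the 17 comparisons 240 calls of the 47 genes were made, and of their 3356 values under the alternatives 3207 stayed past both thresholds, 149 did not and 0 changed direction. The number called changed by over 1.5 times as follows. With a pseudocount of 10 it was 2 for day 2 against day 0, 7 for day 4 against day 2, 3 for day 6 CD43+ and 1 for day 6 CD43- against day 4, 2 for CD43- cells from day 6 to day 9, 3 from day 9 to day 12, 3 and 7 for the fractions of days 6 and 9, and 1 for the difference between fractions in the change to day 16. That difference gave 1 with a pseudocount of 0.1 and 0 with a minimum value of 100, which left RTP4 and GBP1 untested. With a fold threshold of 2 the same 9 comparisons gave 18, 20, 22, 12, 12, 11, 18, 24 and 8, CD43+ cells 25 between days 9 and 12 and 38 between days 12 and 16, and the fractions of day 16 gave 28. Fitting the compared populations alone gave 0 for CD43- cells from day 6 to day 9, and leaving out 1 sample gave 4 to 11 there.

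The replicate block changed no call. The counts between day 12 and day 16 were 20 in CD43+ and 24 in CD43- cells with the block as without it. The fractions of day 6 gave 6 in both fits. Every population held the same replicate numbers, so the block could not move a fold change. It did not model pairs of CD43+ and CD43- samples within a day, so it is no check of pairing. All 240 calls also held without the filter and over protein-coding genes alone. With 3 samples a population and no depth, low genes such as RTP4, GBP1 and IFNB1 are the least certain.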
